A study of Mus musculus with 27 samples.

Results

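The genes described here are 8 mouse transcription factors best known as drivers of the epithelial-to-mesenchymal transition (EMT): the zinc-finger repressors Snai1 and Snai2, the basic helix-loop-helix factors Twist1 and Twist2, the zinc-finger and homeodomain repressors Zeb1 and Zeb2, the homeobox factor Prrx1 and the forkhead factor Foxc2. They were picked by symbol in the probe annotation, 8 of the 19937 genes measured. Each is read by 1 probe set, and all 8 were kept in every comparison, with no filter on low values. The arrays are Affymetrix mouse gene arrays hybridised with RNA from 27 samples, and all values are log2 expression after robust multi-array averaging (RMA).

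Cultured cells gave 12 arrays. Of these, 10 are immortalized neural stem cell lines, 6 labelled p53 mutant (lines 3, 28, 31, 59, 95 and 116) and 4 labelled WT (lines 119, 120, 123 and 331), and 2 are normal neural stem cells (NSCs), labelled WT. Tissue gave 15 arrays: 3 tumors from each of lines 1, 31, 59 and 123, and 3 samples of normal subcutaneous tissue (SubQ), labelled WT. The tumors of lines 31 and 59 carry the label p53 mutant, and those of lines 1 and 123 the label WT. Every sample, the cultures included, carries the same host strain label, CB17/ICR-Prkdcscid/IcrCrl, which are severe combined immunodeficient mice that lack mature B and T cells but keep macrophages and other innate cells. The labels give no ages, culture conditions, p53 allele or means of immortalization. Each line was measured on 1 array in culture, line 1 has no culture array, and the 3 tumors of a line share that line as their source, so the tests rest on the spread among these arrays alone.

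During EMT, epithelial cells lose E-cadherin and their junctions, gain matrix and contractile genes and become motile. The SNAIL and ZEB proteins repress epithelial genes by binding E-box sequences in their promoters, and the TWIST proteins act as dimers with E-proteins, against which the Id proteins compete. The same factors work outside epithelia: Snai2 and Twist1 act in the neural crest, Prrx1 and Foxc2 in limb, vessel and craniofacial mesenchyme, and Zeb1 and Zeb2 are normally made by neural progenitors. The miR-200 family and miR-205 repress Zeb1 and Zeb2, and the ZEB proteins repress the miR-200 genes in turn.

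The cell arrays had median values of 7.18 to 7.28 and the tissue arrays of 5.66 to 5.87, and the cell and tissue arrays appear to have been normalized as separate sets, so levels are compared only within a set unless stated. As a rough background level, since no detection calls are used here, the 95th percentile of 1194 odorant and vomeronasal receptor genes was taken on each array. It lay at 6.64 to 6.89 in the lines, 6.72 to 6.91 in the NSCs, 4.99 to 5.44 in the tumors and 6.30 to 6.49 in SubQ. The SubQ arrays had a narrow spread over genes (SD 0.87 to 1.02, against 1.63 to 1.79 in the tumors) and low Actb, the beta-actin gene (8.90 ± 0.80, SD, n = 3, against 12.26 ± 0.21, n = 12, in the tumors). Of 8 neural stem cell markers, all 8 exceeded the receptor level in both NSCs. In the lines Nes, Sox2, Slc1a3 and Hes5 exceeded it in 10 of 10, Fabp7 in 1 and Prom1 in 0. Of the 8 markers, 2 exceeded it in all 12 tumors, while Prom1 and Fabp7 exceeded it in 0. In SubQ 4 of 6 adipocyte markers, Adipoq, Plin1, Fabp4 and Cidec, exceeded it in all 3 samples. So did 5 of 6 skeletal muscle, 3 of 6 keratinocyte, 4 of 8 fibroblast and 3 of 6 mural cell markers.

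The sequences just upstream of Snai1, Twist1 and Twist2 are shown because they belong to the SNAIL and TWIST families, whose members are set side by side in the comparison of lines with NSCs, where the difference between paralogs was not tested. Each is the 250 bases before the annotated transcription start, read 5′ to 3′ on the gene's strand from the RefSeq promoter table (GRCm38.p6), in which 5 of the 8 genes had an entry. Capitals mark the E-box CAGGTG or CACCTG, the TATA motif TATAAA or TTTATA, the CCAAT motif CCAAT or ATTGG, and the GC box GGGCGG or CCGCCC, searched on both strands.
Snai1, chr2:167537945-167538194, plus strand: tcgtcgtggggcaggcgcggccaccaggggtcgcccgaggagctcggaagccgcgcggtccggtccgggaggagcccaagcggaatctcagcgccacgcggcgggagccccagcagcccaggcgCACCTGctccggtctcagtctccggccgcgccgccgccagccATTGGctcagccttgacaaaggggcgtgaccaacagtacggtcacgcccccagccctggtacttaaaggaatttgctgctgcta
Twist1, chr12:33957421-33957670, plus strand: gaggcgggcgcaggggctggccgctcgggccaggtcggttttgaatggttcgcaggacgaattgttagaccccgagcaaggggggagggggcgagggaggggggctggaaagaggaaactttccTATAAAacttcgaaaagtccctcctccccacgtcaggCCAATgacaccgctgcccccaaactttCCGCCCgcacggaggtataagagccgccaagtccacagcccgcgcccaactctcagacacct
Twist2, chr1:91801211-91801460, plus strand: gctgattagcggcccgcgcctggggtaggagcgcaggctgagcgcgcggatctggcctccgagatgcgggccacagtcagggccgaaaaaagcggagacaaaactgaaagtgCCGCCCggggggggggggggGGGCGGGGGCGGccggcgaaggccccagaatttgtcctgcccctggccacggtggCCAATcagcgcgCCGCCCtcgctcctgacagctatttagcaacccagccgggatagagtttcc
Counting back from the start site, the Snai1 window holds the E-box CACCTG at -126, the hexamer that SNAIL and ZEB proteins are known to bind, and ATTGG at -84. The Twist1 window holds TATAAA at -126, CCAAT at -89 and CCGCCC at -62, and the Twist2 window holds CCAAT at -63 and 4 GC boxes, 2 of which adjoin. None of these motifs is rare: over the same 250 bases of 32851 promoter entries, 17.2% hold the E-box, 12.4% the TATA motif, 33.8% the CCAAT motif and 32.7% the GC box. All 3 windows are rich in CG dinucleotides, with 27 in Snai1, 18 in Twist1 and 23 in Twist2, against a median of 6 over all entries. These matches are descriptions of the letters and were not tied to binding.

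The mature microRNAs that target the Zeb messages are shown with their seed, bases 2 to 8, in capitals, because the seed decides which target sites pair.
mmu-miR-200b-3p: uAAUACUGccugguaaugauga
mmu-miR-200c-3p: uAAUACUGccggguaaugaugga
mmu-miR-200a-3p: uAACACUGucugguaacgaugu
mmu-miR-141-3p: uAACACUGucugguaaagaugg
mmu-miR-205-5p: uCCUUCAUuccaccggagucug
miR-200b and miR-200c share the seed AAUACUG, miR-200a and miR-141 share AACACUG, and miR-205 has a seed of its own. The arrays read the hairpin precursors and not these mature forms. Mir200b, Mir200c, Mir141 and Mir205 hairpins exceeded the receptor level on 0 of the 27 arrays. The Mir200a hairpin exceeded it in 9 of 10 lines (6.74 to 7.47) and 0 of 2 NSCs (6.70 and 6.88), and 0 of 5 hairpins measured passed the test between lines and NSCs. In the tissue arrays it exceeded the receptor level in 10 of 12 tumors (5.05 to 5.74) and 0 of 3 SubQ samples (5.28 to 6.44), whose receptor level is higher.

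The comparison of the 10 immortalized lines with the 2 normal NSCs asks how the factors differ after immortalization. Snai2, Twist1, Twist2 and Prrx1 were higher in the lines and Zeb1 was lower, while Snai1, Zeb2 and Foxc2 did not pass the test. So 5 of the 8 genes were called by limma at an adjusted p (Benjamini-Hochberg over all genes) under 0.05, where 15% of all genes were. Of all genes 6.79% were called higher, as 4 of the 8 were, and 8.22% lower, as 1 was. The median log2 difference over the 8 genes was 1.06, and over all genes it was -0.01. Values of lines and NSCs did not overlap for 4 of the 8 genes, as for 21.3% of all genes.

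Snai2, which encodes SLUG, a factor of neural crest migration, had the largest rise. Its NSC values were 6.78 and 6.65, and the lines ran from 8.28 (line 95) over a median of 10.10 to 11.79 (line 116). Every line lay above both NSCs, whose values sat near the receptor level. The log2 difference was 3.50 ± 0.63 (SE; 95% interval 2.14 to 4.86; limma, adjusted p = 0.0018), and the call held in all 21 alternative settings. Its paralog Snai1, which encodes SNAIL, the archetypal E-cadherin repressor, stood at 7.44 and 7.83 in the NSCs and between 7.46 and 8.37 in the lines, with a median of 8.05. The groups overlapped, and the difference of 0.35 ± 0.22 (-0.12 to 0.82) did not pass (limma, adjusted p = 0.362). With the 4 WT lines alone, Snai1 was 0.62 higher than in the NSCs and passed (limma, adjusted p = 0.0342).

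Twist1, a factor of cranial mesoderm and neural crest, was at 6.22 and 6.15 in the NSCs, below the receptor level on both arrays. In the lines it ran from 7.72 (line 120) over a median of 8.69 to 9.63 (line 331), and no line reached down to the NSCs. The log2 difference was 2.44 ± 0.37 (1.64 to 3.25; limma, adjusted p = 0.0005), and this call also held in all 21 alternative settings. Twist2, the close relative of Twist1 in dermal and bone mesenchyme, was at 7.06 and 7.40 in the NSCs and between 7.38 and 8.69 in the lines. The lowest line, 331, fell just under the higher NSC, so the groups overlapped. Its rise of 0.96 ± 0.29 (limma, adjusted p = 0.0431) was near the threshold, and was lost without either NSC array (adjusted p = 0.35 and 0.147) without any one of 7 of the lines (3, 28, 31, 95, 116, 119 and 120), and with the WT lines alone (0.68, adjusted p = 0.247).

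Zeb1, a repressor of epithelial genes that neural progenitors normally make, went the other way. The NSCs stood at 12.11 and 11.98, and the lines between 10.02 (line 123) and 11.27 (line 3), median 10.81. All 10 lines were below both NSCs, yet still far above the receptor level. The log2 difference was -1.24 ± 0.26 (limma, adjusted p = 0.0051). Without NSC 1 it was -1.17 (adjusted p = 0.0855) and without NSC 2 it was -1.31 (adjusted p = 0.0553), so the size held and the call did not. Zeb2, its paralog and a regulator of neural crest and myelination, was at 9.45 and 9.18 in the NSCs and between 8.34 and 9.42 in the lines. The groups overlapped, with a difference of -0.24 ± 0.22 (-0.71 to 0.23; limma, adjusted p = 0.574).

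Prrx1, a homeobox factor of limb and craniofacial mesenchyme, was at 10.14 and 9.68 in the NSCs and between 10.50 (line 123) and 11.88 (line 331) in the lines. All lines exceeded both NSCs, by 1.16 ± 0.31 on average (limma, adjusted p = 0.0215). The call was lost without NSC 1 (1.39, adjusted p = 0.0785) or NSC 2 (0.93, adjusted p = 0.281), and with the WT lines alone (1.18, adjusted p = 0.0774). Foxc2, a forkhead factor of mesenchyme and lymphatic vessels, had the widest spread over the lines of the 8 genes. It was at 6.72 and 6.54 in the NSCs, below the receptor level on both arrays, and ran from 6.16 (line 31) over a median of 8.37 to 9.80 (line 59) in the lines. Line 31 lay below both NSCs, line 120 (6.97) just above them, and lines 59 and 119 more than 3 log2 units higher. The difference of 1.58 ± 0.76 (-0.07 to 3.23) did not pass (limma, adjusted p = 0.213).

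**Figure D1:**
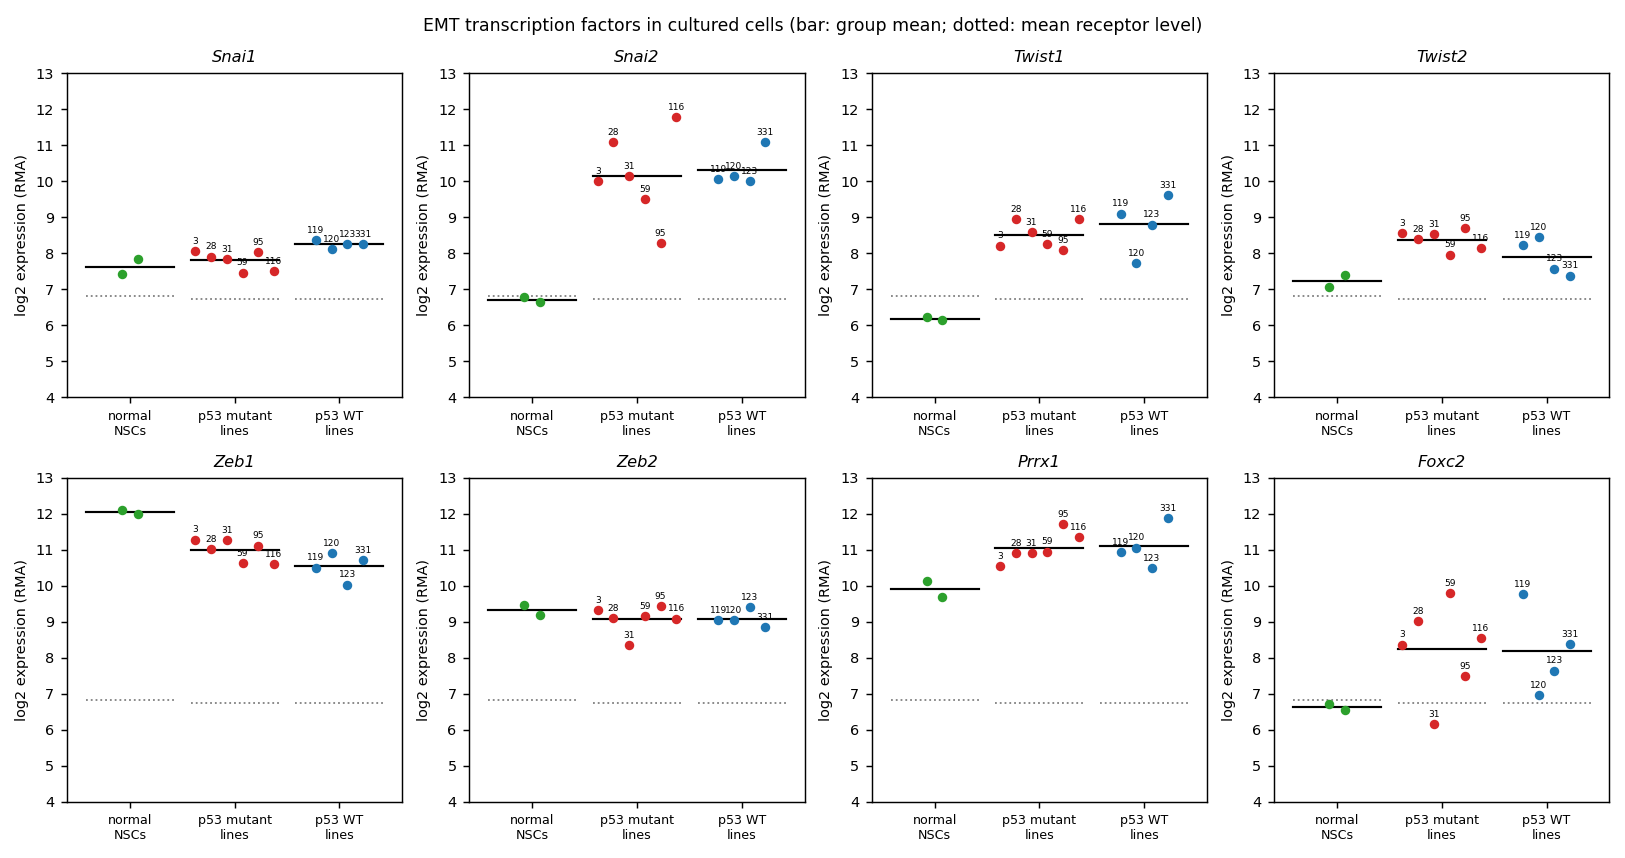
Log2 expression (RMA) of the 8 EMT transcription factors on the 12 cell arrays, 1 panel per gene, with points for single arrays numbered by line, bars for group means and dotted lines for the mean receptor level of each group. All 10 lines lie above both NSCs for Snai2, Twist1 and Prrx1 and below both for Zeb1, and Foxc2 runs from 6.16 to 9.80 over the lines.

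The genes around these factors were followed in lists of named genes. Of 43 mesenchymal genes measured, 24 rose in the lines and 0 fell, with a median log2 difference of 1.63 against -0.01 over all genes; without NSC 1 or NSC 2, 15 and 16 rose. Acta2 (smooth muscle actin) rose by 5.57, Thbs1 (thrombospondin 1) by 5.0, Postn (periostin) by 4.91 and Lox (a collagen crosslinking enzyme) by 4.72. Postn and Lox were below the receptor level in both NSCs, as were Pkp2, Met, Pdgfrb, Axl, Foxd1, Foxf2 and Ajuba, also called higher, so the sizes of these differences are limited by that level. The fibronectin gene Fn1 was also higher, by 4.35. The intermediate filament gene Vim and the N-cadherin gene Cdh2 are classical EMT readouts but did not pass, at 0.11 (limma, adjusted p = 0.593) and 0.35 (adjusted p = 0.535). Of 40 epithelial genes, 1 rose, Pkp2, a desmosome plaque protein (2.98), and 1 fell, Tjp1, the tight junction protein ZO-1 (-0.53). Cdh1, the E-cadherin gene that SNAIL and ZEB proteins repress in epithelia, differed by 0.08 (limma, adjusted p = 0.753) and the epithelial adhesion gene Epcam by -0.02.

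Among 34 genes of upstream signals, 11 rose and 4 fell in the lines, with a median of 0.34. Met, the receptor of hepatocyte growth factor, rose by 4.91, Pdgfrb, a receptor of platelet-derived growth factor, by 3.29 and the receptor kinase Axl by 3.18, while the ligand Bmp7 fell by 2.88. Without NSC 1 the counts were 7 and 2, and without NSC 2 they were 7 and 3. Of 38 paralogs and other mesoderm factors, 3 rose: the forkhead genes Foxd1 (3.58) and Foxf2 (1.66) and the runt factor Runx1 (2.83). For the partner lists the share of all genes called, 15%, is the background. Of 18 corepressors and chromatin partners, the LIM protein Ajuba rose (2.11) and its relative Limd1 fell (-1.11). Of 15 regulators of protein stability, the Hippo kinase Lats2 (1.37) and the F-box protein Fbxl5 (0.56) rose, and the F-box protein Btrc, which targets SNAIL for degradation, fell (-0.42). Of 7 E-proteins and Id inhibitors, 1 changed, the E-protein Tcf12 (-0.58).

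Markers of other cell types moved beside these genes. Of 8 neural stem cell markers 4 fell in the lines and 0 rose, and their mean level was 7.07 to 7.76 in the lines against 9.69 to 9.72 in the NSCs. Among 8 fibroblast markers 2 rose (mean level 7.38 to 9.08 against 6.97 to 7.02), as did 2 of 6 mural cell markers (8.07 to 8.30 against 6.73 to 6.83). These markers, Col1a1 and Col1a2 for fibroblasts and Pdgfrb and Acta2 for mural cells, are also in the lists above. The fibroblast markers Lum and Dpt and the mural marker Des did not exceed the receptor level in any line. Among 8 endothelial markers 0 changed. Of 6 neuron markers 3 fell (mean level 6.65 to 8.40 in the lines against 8.46 to 8.58 in the NSCs), and of 5 markers of the oligodendrocyte lineage 2 fell (6.69 to 6.93 against 8.30 to 8.44). The part of such cell identity in the factor levels was not tested.

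**Figure D2:**
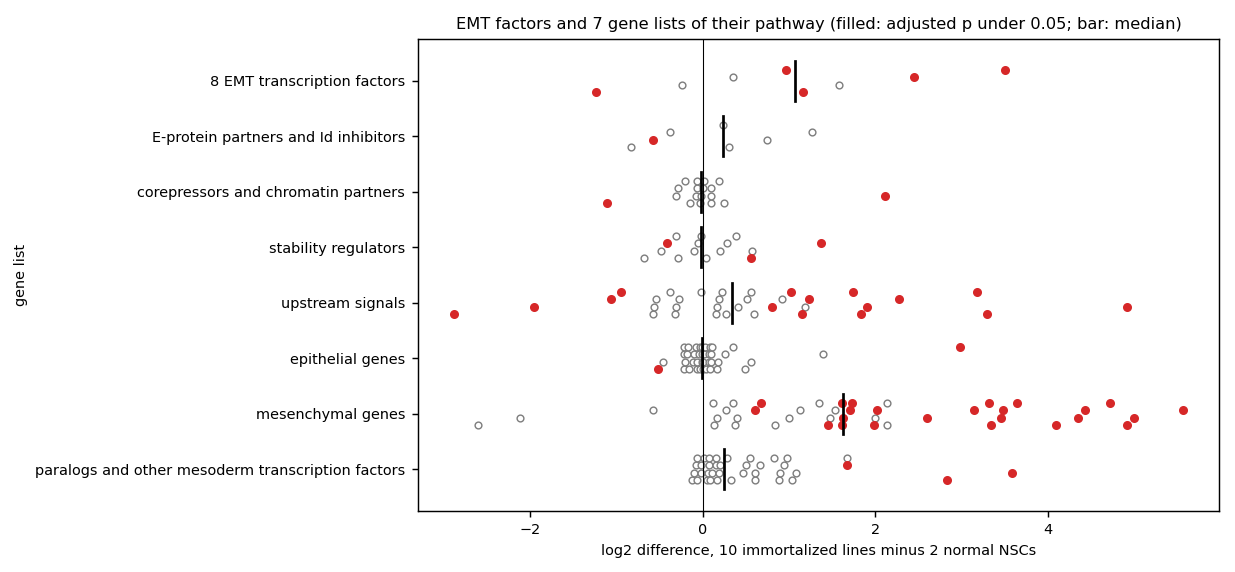
Log2 difference of the 10 lines minus the 2 NSCs for each gene (points, filled where limma's adjusted p was under 0.05) and its median (bar), for the 8 EMT transcription factors and 7 gene lists of their pathway. The mesenchymal list has the highest median, 1.63, while the epithelial list sits at -0.01.

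Between the 6 p53 mutant and 4 p53 WT lines, 0 of the 8 genes passed by limma at an adjusted p under 0.05, where 0.0201% of all genes (4 genes) did. At an unadjusted limma p under 0.05 there were 2: Snai1 and Zeb1. Of all genes 1.40% had an unadjusted limma p at or below that of Snai1 (0.0059), and 7.77% at or below that of Zeb1 (0.0449). Snai1 was at 8.06, 7.91, 7.84, 7.46, 8.03 and 7.51 in the mutant lines and at 8.37, 8.12, 8.25 and 8.26 in the WT lines. All mutant lines were below all WT lines, a separation that 1.69% of all genes showed, 1.02% in this direction. The log2 difference was -0.45 ± 0.13 (limma, adjusted p = 0.412). Zeb1 was 0.44 ± 0.19 higher in the mutant lines with overlapping groups (limma, adjusted p = 0.577). Twist2 was 0.47 ± 0.22 higher (limma, adjusted p = 0.606), also with overlap. For Snai2, Twist1, Zeb2, Prrx1 and Foxc2 the differences lay between -0.30 and 0.04, and their intervals include 0. For Snai2 the 95% interval ran from -1.44 to 1.07 and for Foxc2 from -1.49 to 1.56, so both hold 2-fold changes in either direction. In all 8 gene lists 0 genes passed this comparison. Fibroblast markers had a median difference of -1.01 here, with 0 of 8 called.

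Across the 10 lines the range from lowest to highest was at least 1 log2 unit for every gene but Snai1, whose range was 0.91. The factors did not vary as a block. Of the 28 pairs of genes, 2 had a Pearson r above 0.6 and 1 below -0.6. Twist2 and Zeb1 had r = 0.75 (Spearman rho 0.78, and r = 0.85 without the 2 lines of most extreme Twist2). Snai2 and Twist1 had r = 0.61 (rho 0.50, and 0.63 without 2 lines), and Twist1 and Twist2 had r = -0.65 (rho -0.65, and -0.38 without 2 lines). These are descriptions over 10 arrays that share their processing, with no p.

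By the same measure, the genes most like each factor over the 10 lines were sought among genes whose range was at least 1. Genes with provisional symbols (ending in Rik, or starting with LOC or with Gm and a digit) were left out of this search. Each r is given first over all 10 lines and then without the 2 lines of most extreme value for that factor. The genes were picked for a high first r, and the second r reuses the remaining lines, so neither checks the pick. Snai2, without lines 95 and 116, ran like Ascc1 (r = 0.91, then 0.59), Rasal2 (0.88, then 0.69) and Plaat3 (0.87, then 0.75). Twist1, without lines 120 and 331, ran like St3gal5, a ganglioside-forming sialyltransferase (r = 0.93, then 0.86), Plod1, a collagen lysyl hydroxylase (0.88, then 0.85), and Prorsd1 (0.87, then 0.73). Twist2, without lines 123 and 331, ran like Ermp1 (r = 0.94, then 0.79), Hbegf, a ligand of the EGF receptor (0.92, then 0.94), and Zmat3, a p53 target (0.91, then 0.71). Over the 12 tumors the same pairs, in the order named, had r = -0.59, -0.76 and -0.75 for Snai2. For Twist1 they had r = -0.12, -0.28 and 0.42, and for Twist2 0.84, -0.08 and 0.18.

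Zeb1, without lines 3 and 123, ran like Vps45 (r = 0.90, then 0.73), Purb (0.89, then 0.84) and Rsbn1 (0.89, then 0.73). Zeb2, without lines 31 and 95, ran like Casp8, the initiator caspase of death receptors (r = 0.86, then 0.28). Zeb2 also ran like Nox4, an NADPH oxidase (0.80, then 0.88), and Tdpoz1 (0.79, then 0.11). Tdpoz1 was below the receptor level in every line, so no likeness to Zeb2 is read from its values. Line 31 had the lowest Zeb2 of the lines (8.34) and a Casp8 value of 5.18, while the other 9 lines had Casp8 between 8.42 and 10.43. Prrx1, without lines 95 and 331, ran like Zfp458 (r = 0.89, then 0.86), Zfp759 (0.88, then 0.74) and Bace2, a secretase (0.87, then 0.84). Foxc2, without lines 31 and 59, ran like the stromal metalloproteinase gene Mmp11 (r = 0.84, then 0.76), Smad9, a transducer of bone morphogenetic protein signals (0.81, then 0.82), and Ddt (0.80, then 0.70). Over the 12 tumors these pairs, in the order named, had r = 0.65, -0.06 and 0.45 for Zeb1 and 0.12, 0.44 and -0.34 for Zeb2. For Prrx1 they had r = -0.30, -0.41 and -0.47, and for Foxc2 -0.52, 0.27 and -0.31. So most likenesses over the lines did not recur over the tumors.

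The comparison of 12 tumors with 3 SubQ samples sets the tumors against normal tissue of the kind the labels name. Zeb1, Prrx1, Zeb2, Snai1 and Twist1 were higher in the tumors, and for each of these 5 the lowest tumor exceeded the highest SubQ sample. Snai2, Twist2 and Foxc2 did not pass. This count stands against a high background: 76.5% of all genes were called, 30.7% of all genes higher and 45.8% lower, and 52.5% had groups that did not overlap, 21.9% with the tumors higher. The median log2 difference was 0.89 over the 8 genes and -0.28 over all genes. In such bulk samples fewer cells of a type and less RNA per cell cannot be told apart. The part of RNA quality, of the narrow spread and of the low Actb of the SubQ arrays in these differences was not tested.

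Zeb1 had the largest difference. SubQ was at 6.44, 7.04 and 6.77 and the tumors ran from 8.68 over a median of 9.42 to 9.88, a difference of 2.60 ± 0.20 (limma, adjusted p = 8.59e-09). Prrx1 was at 7.04, 6.32 and 6.39 in SubQ and between 8.46 and 9.87 in the tumors, median 8.82 (2.40 ± 0.27, adjusted p = 5.11e-07). Zeb2 was at 6.34, 6.67 and 6.55 in SubQ and between 7.51 and 8.36 in the tumors, median 8.07 (1.49 ± 0.17, adjusted p = 7.21e-07). No tumor came within 1 log2 unit of the SubQ samples for Zeb1 and Prrx1. Snai1 was at 5.72, 5.52 and 5.19 in SubQ, below the receptor level in all 3, and between 5.79 and 7.27 in the tumors (0.91 ± 0.24, adjusted p = 0.0027). Twist1 was at 6.75, 6.56 and 6.56 in SubQ and between 7.13 and 8.16 in the tumors (0.86 ± 0.17, adjusted p = 0.0002).

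The remaining 3 genes overlapped. Snai2 was at 7.54, 6.50 and 7.67 in SubQ and between 7.07 and 9.25 in the tumors, a difference of 0.88 ± 0.41 (limma, adjusted p = 0.0578). It passed without the first tumor of line 31 (0.96), the first of line 59 (0.94) or the second of line 59 (0.98), with adjusted p = 0.0366, 0.0448 and 0.0296. Twist2 was at 6.42, 6.11 and 6.39 in SubQ and between 5.78 and 8.28 in the tumors, a difference of 0.17 (adjusted p = 0.704). Foxc2 was at 5.50, 5.84 and 5.56 in SubQ, below the receptor level in all 3, and between 4.73 and 7.53 in the tumors, a difference of -0.04 (adjusted p = 0.949). For these last genes the tumors of line 1 mattered: without them Twist2 was at -0.19, and Foxc2 was at -0.65 (limma, adjusted p = 0.0009). Since Foxc2 was below the receptor level in all 3 SubQ samples and in 8 of those 9 tumors, and the median of the receptor genes was itself 1.29 lower in the tumors (mean 3.66 against 4.95), no fall of Foxc2 is read from this value.

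Scaling changed part of this picture. After quantile normalization of the tissue arrays, Snai1 (1.21), Zeb1 (1.46), Zeb2 (0.67) and Prrx1 (1.39) were still called higher, while Twist1 was at -0.04, Snai2 at -0.47, Twist2 at -0.24 and Foxc2 at 0.24. After centring the arrays on their medians, Snai2 (1.02) passed as well (adjusted p = 0.0317). So the direction holds under both scalings for Snai1, Zeb1, Zeb2 and Prrx1, and Twist1 lost its call after quantile normalization. The median over all genes was -0.28 as deposited, -0.14 after centring and -0.11 after quantile normalization.

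**Figure D3:**
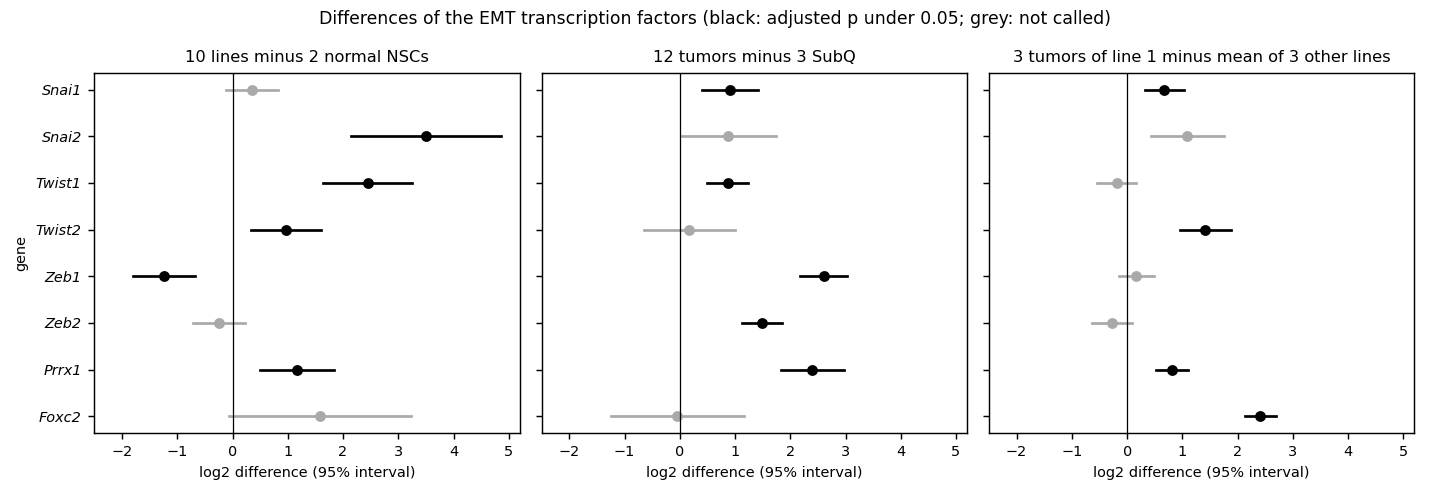
Log2 difference (points) and 95% interval (lines) of the 8 EMT transcription factors in lines against NSCs, tumors against SubQ and tumors of line 1 against the other 3 lines, black where called (limma, adjusted p under 0.05) and grey where not. Snai2 (3.50) leads in lines against NSCs, Zeb1 (2.60) in tumors against SubQ and Foxc2 (2.41) in the tumors of line 1.

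The same lists in tumors against SubQ are given with the count after quantile normalization, and stand against 30.7% of all genes called higher and 45.8% called lower. Lower calls among dim genes are limited by the background level, since the receptor median was 1.29 lower in the tumors. Of 43 mesenchymal genes 36 rose and 0 fell (26 and 2 after quantile normalization), led by Fn1 (5.22), the calcium-binding protein gene S100a4 (4.68), Acta2 (4.37) and Vcan (versican, 4.20). Of 40 epithelial genes 2 rose and 30 fell (3 and 22), among them the desmosome gene Dsp (-1.88), while Tjp1 rose (2.29). Of the 30, 9 were below the receptor level on all 15 arrays, the desmosome gene Dsg2 among them, and the epithelial factor Ehf exceeded it in 1 SubQ sample and 0 tumors. Cdh1 differed by -0.54 (limma, adjusted p = 0.17). Of 18 corepressors and chromatin partners 15 rose and 0 fell (11 and 2): the deacetylase Hdac2 (3.55), the Polycomb genes Ezh2 (2.38) and Eed (2.25) and the demethylase Kdm1a (2.35) led. Of 34 upstream signal genes 23 rose and 1 fell (14 and 4), with Met (5.12), the beta-catenin gene Ctnnb1 (3.15), Smad2 (2.87) and Tgfbr1 (2.84) at the top.

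Of 15 stability regulators 12 rose and 1 fell (6 and 1), led by the F-box gene Fbxo11 (3.00) and Mdm2 (2.38), the ubiquitin ligase of p53. Of 7 E-proteins and Id inhibitors 4 rose and 1 fell (4 and 3), with Tcf4 (2.57), Id2 (2.25) and Tcf12 (2.21) highest. Of 38 paralogs and other mesoderm factors 1 rose, Runx1 (2.23), and 22 fell. Of these 22, 3 were below the receptor level on all 15 arrays, and Tcf21 exceeded it in 1 SubQ sample and 0 tumors. After quantile normalization the counts were 2 and 23. All 5 hairpins were called lower, and 1 was after quantile normalization, with 0 of 5 above the receptor level in SubQ and 4 of 5 above it on no array of either group.

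Cell type markers also differed between tumors and SubQ. All 9 macrophage markers rose, with a mean level of 7.87 to 8.95 in the tumors against 6.02 to 6.15 in SubQ. Of 8 fibroblast markers 6 rose and 0 fell (8.16 to 9.38 against 7.28 to 7.80), and of 8 endothelial markers 3 rose and 1 fell. All 6 adipocyte markers, 5 of 6 skeletal muscle markers and 3 of 6 keratinocyte markers fell. Zeb2 and Prrx1 are also known from macrophages and fibroblasts, respectively, and the part of these cells in the tumor values was not tested.

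Among the 4 tumor lines, 3 of the 8 genes differed by limma's F test over 12 tumors, where 5.07% of all genes did: Foxc2 (adjusted p = 4.44e-06), Prrx1 (adjusted p = 0.0078) and Twist2 (adjusted p = 0.0094). Snai1 was just over the threshold (adjusted p = 0.0501). In contrasts of each line with the mean of the other 3, 7 of 32 were called, 4 of them in line 1. In the line 1 contrast 4.62% of all genes were called, 2.33% higher, and for 2.71% all line 1 tumors lay above all others.

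Foxc2 separated line 1 from the rest. The 3 tumors of line 1 stood at 7.47, 7.53 and 7.18. Those of line 31 were at 4.73, 4.81 and 5.18, those of line 59 at 5.15, 4.76 and 5.07, and those of line 123 at 5.07, 5.05 and 5.05. All line 1 tumors exceeded the receptor level, and of the other 9 only 1, of line 59, did. The log2 difference was 2.41 ± 0.13 (limma, adjusted p = 4.8e-07). The contrasts of lines 31, 59 and 123 were called lower, by -0.91, -0.80 and -0.71, in a comparison whose other side includes line 1; in these contrasts 1.39%, 1.17% and 0.848% of all genes were called, and 0.762%, 0.416% and 0.221% were called lower. These calls were lost without the first tumor of line 31 (-0.82), the second of line 59 (-0.68) or any tumor of line 123 (-0.71 to -0.70), each in its own line's contrast. Of the 6 nearest measured neighbours of Foxc2 on its chromosome (Irf8, Foxf1, Mthfsd, Foxl1, 1700018B08Rik and Fbxo31, chosen after their values were seen), 0 were called in line 1, with differences of -0.45 to 0.39.

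Twist2 was at 7.01, 8.28 and 7.33 in the line 1 tumors, and the other 9 tumors lay between 5.78 and 6.48. The groups did not overlap, with a difference of 1.42 ± 0.21 (limma, adjusted p = 0.0027), which was 1.05 without the tumor at 8.28. Prrx1 was at 9.32, 9.87 and 9.59 in line 1 and between 8.46 and 9.28 in the others (0.81 ± 0.13, adjusted p = 0.0053). Snai1 was at 6.51, 7.27 and 6.89 in line 1 and between 5.79 and 6.55 in the others. Its groups overlapped, and its difference of 0.67 ± 0.16 (adjusted p = 0.0324) was 0.49 without the second line 1 tumor (adjusted p = 0.18). That call was also lost without the third line 1 tumor, the first of line 31, or the first or second of lines 59 and 123. Snai2 was 1.09 ± 0.30 higher in line 1 without passing (adjusted p = 0.0638), and 1.27 higher with a pass without the third tumor of line 31 (adjusted p = 0.0017). Twist1, Zeb1 and Zeb2 differed by -0.19, 0.17 and -0.27 in line 1 and did not pass in any of the 4 lines. So the line 1 tumors exceeded all other tumors for Foxc2, Twist2 and Prrx1, and for the other 5 factors they overlapped with them.

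**Figure D4:**
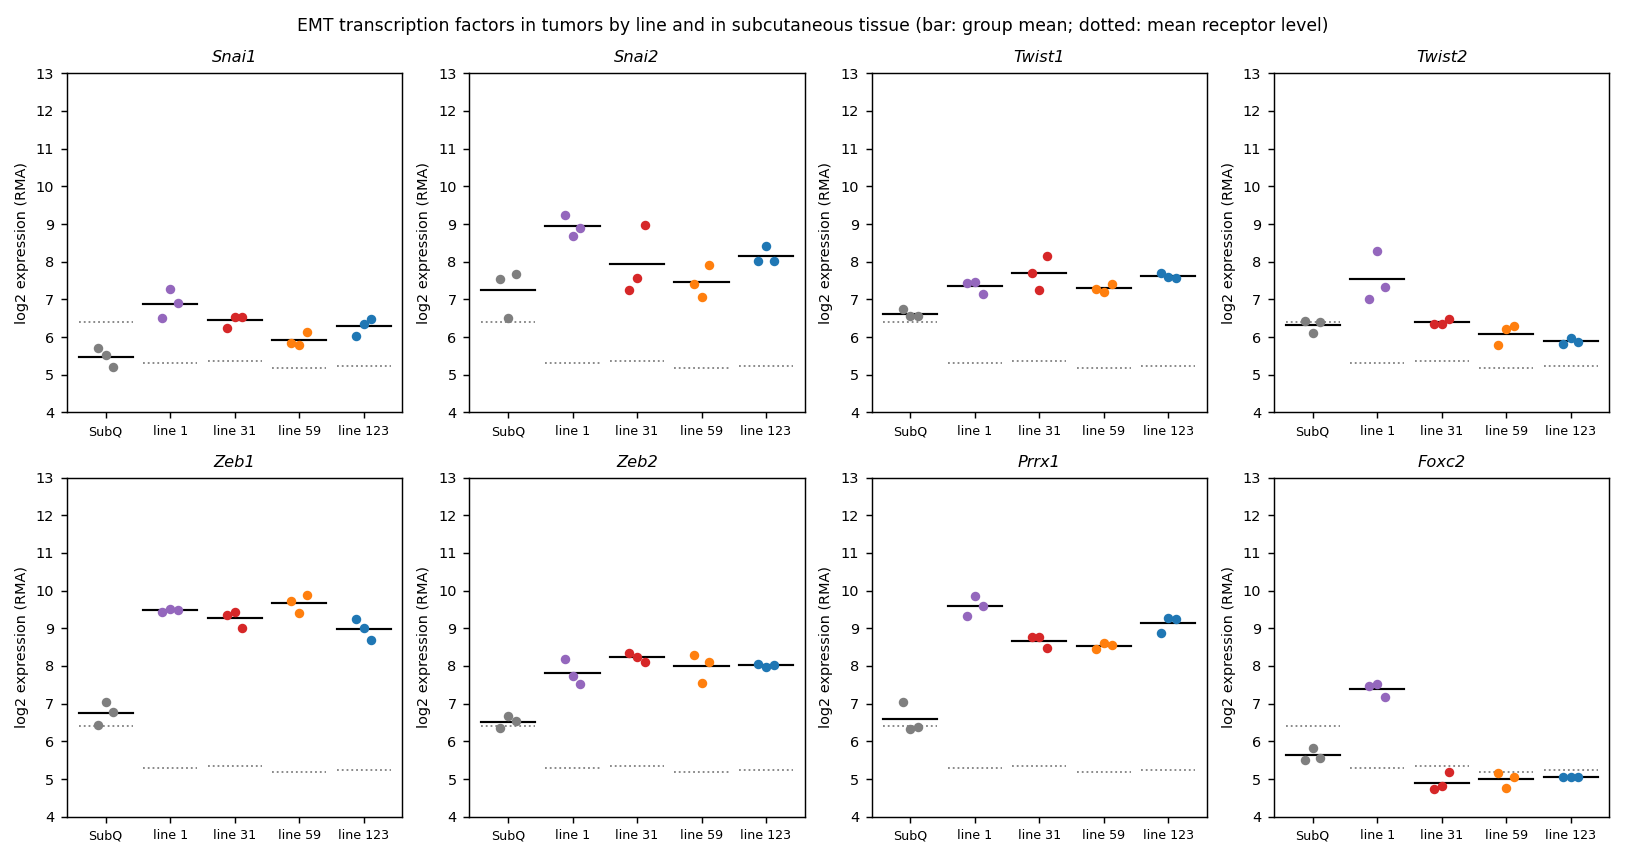
Log2 expression (RMA) of the 8 EMT transcription factors on the 15 tissue arrays, 1 panel per gene, with points for single samples, bars for group means and dotted lines for the mean receptor level of each group. Tumors of line 1 lie at 7.18 to 7.53 for Foxc2 while all other tumors lie at or below 5.18, and for Zeb1 every tumor lies above every SubQ sample.

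Other genes were also higher in the line 1 tumors. Of 38 paralogs and other mesoderm factors 5 were called higher and 0 lower, among them the forkhead gene Foxd1 (1.98), the homeobox gene Alx1 (0.88) and the neural crest factor Tfap2a (0.80). Values of Alx1 and Tfap2a overlapped with those of the other tumors. Foxd1 and Alx1 were below the receptor level in the other 9 tumors, and the homeobox gene Shox2, also called, was below it in all 12. Of 43 mesenchymal genes 3 rose and 1 fell: Mmp9 (1.77), a gelatinase, Thbs2 (1.34) and Fap (1.23) rose, and the protease inhibitor gene Timp3 fell (-2.42). The tight junction gene Cldn1 fell (-2.46) as 1 of 40 epithelial genes. Of 34 upstream signal genes 2 were called higher and 0 lower, Wnt5a (1.49) and Lef1 (0.64), both with values that overlapped with the other tumors. Of 18 corepressors and chromatin partners 1 was called higher, Ezh2 (0.70), and 0 lower. Of all genes 2.33% were called higher in this contrast. Endothelial markers had a mean level of 7.14 to 7.42 in line 1 against 5.99 to 6.66 in the other tumors, with 2 of 8 called higher. Fibroblast markers stood at 9.22 to 9.38 against 8.16 to 8.90, with 1 of 8 called higher, and of 9 macrophage markers 3 were called lower. Foxc2 and Prrx1 are known from vessels and fibroblasts, and the part of these cells in the line 1 values was not tested.

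Lines 31, 59 and 123 were measured both in culture and as tumors. Since each has 1 culture array and the cell and tissue arrays appear to have been normalized apart, values after joint quantile normalization are given as a description, with no test. Foxc2 had the largest drop of the 8 genes. In line 59, where it was highest in culture, it went from 8.60 to 5.62, 5.16 and 5.38 in the tumors, a mean difference of -3.21, and 0.030% of all genes lay at or below it. In line 123 it went from 6.41 to 5.48, 5.37 and 5.44 (-0.98), and in line 31, where it was lowest in culture, from 5.13 to 5.04, 5.18 and 5.53 (0.12). As deposited, Foxc2 was below the receptor level of its array in the line 31 culture and in 8 of these 9 tumors, so the size of the drops and the spread among the tumors are limited by that level. Among the neighbours of Foxc2, Foxf1 was also lower in the line 59 tumors (-1.86).

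Twist1 was the 1 gene of the 8 on the same side in all 9 tumors: it was higher than in culture, by 0.79 in line 31, 0.53 in line 59 and 0.54 in line 123. All 9 tumors were higher for 15.7% of all genes and lower for 23.9%. Zeb2 in line 31 went from 7.12 to 8.79, 8.73 and 8.51 (1.56), while it differed by 0.41 in line 59 and 0.38 in line 123. In culture Zeb2 was at 7.98 in line 59 and 8.07 in line 123, so line 31 had the lowest culture value. The macrophage markers of the line 31 tumors had a mean level of 8.55 to 8.95, against 7.99 to 8.35 in line 123 and 8.04 to 8.95 in line 59. The part of macrophages in the Zeb2 values was not tested. Zeb1 was lower in line 31 (-0.31) and higher in lines 59 (0.68) and 123 (0.67). Prrx1 was lower in lines 31 (-0.49) and 59 (-0.78) and higher in line 123 (0.35). Twist2 was lower by 0.45, 0.39 and 0.09 on average, in 8 of 9 tumors. Snai1 differed by 0.23, -0.05 and -0.32 in lines 31, 59 and 123, and Snai2 by -0.47, -0.47 and -0.12, with single line 31 tumors from -1.12 to 0.51 for Snai2. As deposited, without joint normalization, 7 of the 8 genes were lower in all 9 tumors and Zeb2 in line 31 differed by -0.11. In that setting the median of all genes was -1.53 in line 31, -1.59 in line 59 and -1.64 in line 123. The count of 7 is therefore not read as a result about the factors.

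**Figure D5:**
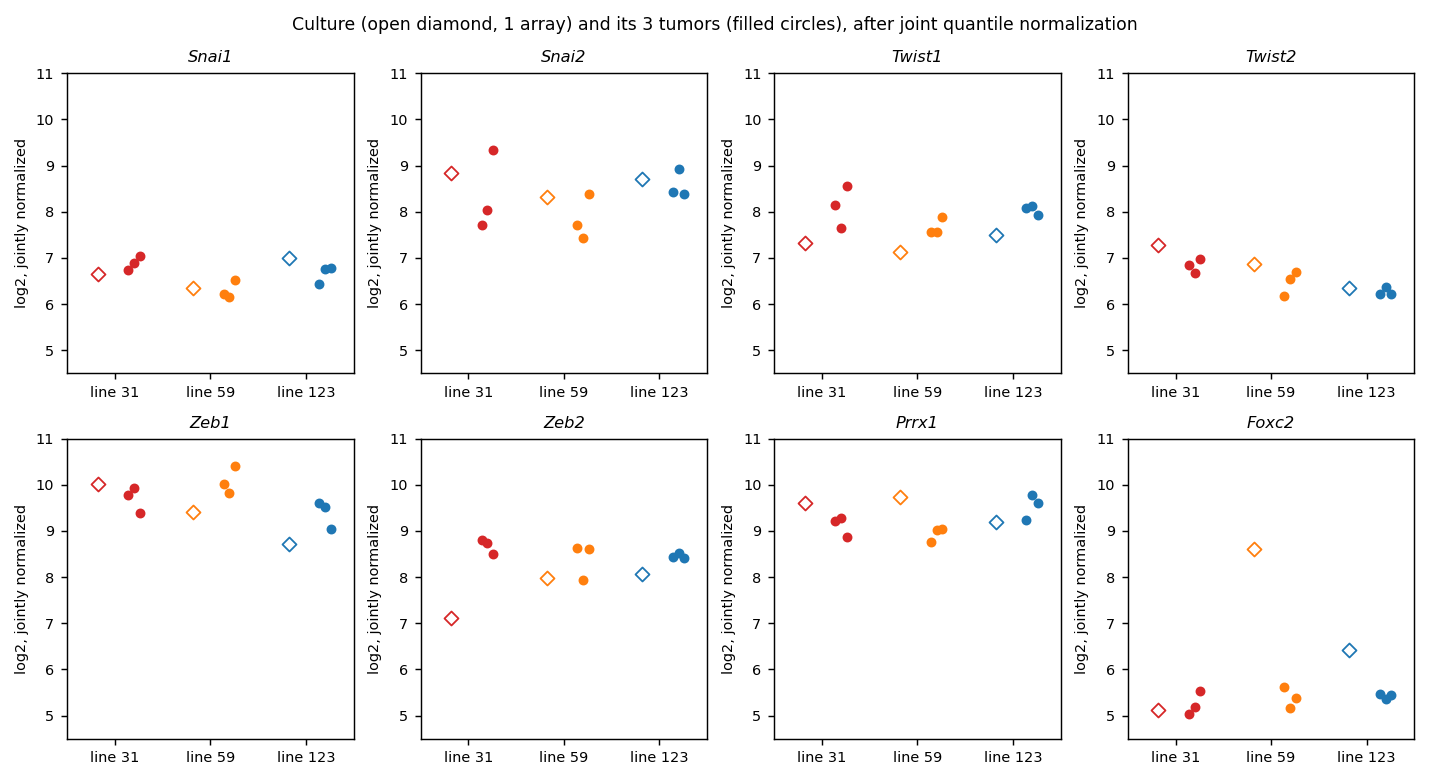
Log2 expression after joint quantile normalization of the 8 EMT transcription factors in lines 31, 59 and 123, with an open diamond for the culture array of each line and filled circles for its 3 tumors. Foxc2 drops from 8.60 to between 5.16 and 5.62 in line 59, and Twist1 is higher than in culture in all 9 tumors.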

How the data were processed

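Total RNA of 27 mouse samples was extracted with Trizol, labelled with biotin and hybridised to Affymetrix arrays, per the labels' protocols. The authors deposited log2 expression values per probe set after RMA, and the submitters' processing notes name GCOS, Affymetrix Expression Console and RMA, with no versions. Cell arrays shared 0 exactly equal values with tissue arrays over 180 pairs, while tissue arrays shared 21 to 460 with each other, and medians differed, so cell and tissue arrays were tested apart. Sequencing depth does not apply, and the number of arrays limits the precision.

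Of 34760 probe sets, 21640 named 1 gene in the platform annotation, 1321 several and 11799 none. The probe set with the highest mean over the 27 arrays stood for each of 19937 genes. Groups were compared with limma 3.58.1 (lmFit, eBayes) in R 4.3.3, on all genes at once, and p-values were adjusted by the Benjamini-Hochberg method, with calls at an adjusted p under 0.05. The fits were tested on simulated data with known changes. Promoters and miRNAs came from RefSeq tables (GRCm38.p6), read with Python 3.11.15.

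Named genes are the 8 factors, up to 4 called genes per list and comparison by size of change, defining markers, and the 3 genes most like a factor over the lines, provisional symbols left out. Fn1, Vim, Cdh2, Cdh1 and Epcam in the lines, and Cdh1 in the tumors, were named besides as classical EMT readouts. The factors and lists were chosen with earlier results of these data known, and the hairpin list was added later. Alternatives were the mean of probe sets, a filter on low values, trend and robust eBayes, median centring, quantile normalization, a 2-fold minimum, each array left out, replicate numbers or line of origin as a block, each p53 class of lines alone, and, chosen after seeing the data, the tumors of line 1 left out.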

Additional observations from a re-analysis of the deposited data

Results flagged for a closer look

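Among 24 tests for an array far from the rest of its group, 3 stood out, where chance gives about 1 in 20 groups. The group of all lines contains both p53 classes, so the tests overlap, and Zeb2 in line 31 was counted in its class and in all lines. Snai2 in line 331 (11.08) lay apart from the other 3 p53 WT lines, the next of which was at 10.15. Zeb2 in line 31 (8.34) lay apart both from the other 5 p53 mutant lines, the lowest of which was at 9.08, and from all other 9 lines, the lowest of which was at 8.86.

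After joint quantile normalization, 3 factors moved in opposite directions between culture and tumor in different lines, with every tumor of a line on the same side. These differences were not tested, since each line has 1 culture array. Snai1 was higher in the line 31 tumors (0.23) and lower in those of line 123 (-0.32). Zeb1 was higher in lines 59 (0.68) and 123 and lower in line 31 (-0.31). Prrx1 was higher in line 123 (0.35) and lower in lines 31 (-0.49) and 59. The share of all genes that did so was not counted, and the flags depend on scaling. After centring, the Snai1 differences of the line 31 tumors ran from -0.08 to 0.22, on both sides of culture. Foxc2 then met the rule, at 0.24 in line 31, -3.30 in line 59 and -1.01 in line 123. As deposited, all 3 flagged factors were lower in every tumor.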

How the results depend on the processing

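Over the group comparisons, the tumor line contrasts and their alternatives, 996 values kept their direction and side of the threshold. Of the rest, 37 fell below it, 15 passed it and 43 turned sign. The F test and the comparison with culture are not in these counts. Between lines and NSCs 5 factors were called, and 2 (Snai2 and Twist1) without either NSC array; 2992 genes were called, 1204 with a 2-fold minimum and 1402 to 3170 with 1 array left out (1402 and 1416 without an NSC). Between p53 mutant and WT lines 4 genes were called, 1 with the filter on low values, and 0 to 10 with 1 line left out. Between tumors and SubQ 15256 genes were called, 7153 with the filter and 8641 with a 2-fold minimum, and of the factors 5, and 3 with the 2-fold minimum. In the contrasts of each tumor line 7 factor calls became 4 with the filter, which left out Foxc2 and its 4 calls and added Snai2 in line 1 (adjusted p = 0.0493), and 2 with the 2-fold minimum, and 1601 gene calls became 639 with the 2-fold minimum and 733 to 2532 with 1 tumor left out. The F test called 1010 genes, and 469 to 1659 with 1 tumor left out, and 3 factors, and up to 5. Factors on 1 side of culture in all 9 tumors numbered 1, but 7 as deposited, where the median of all genes was lower too, and 2 after centring. The share of gene calls that were higher in the lines was 45.3%, and 34.8% without NSC 2.

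Signs turned as follows. Zeb2 between p53 classes was 0.016 after centring and 0.045 after quantile normalization. Between tumors and SubQ, Foxc2 was 0.094 after centring and 0.24 after quantile normalization, where Snai2 was -0.47, Twist1 -0.044 and Twist2 -0.24; Twist2 was -0.19 without line 1. Against culture, as deposited, Twist1 was -0.88, -0.96 and -1.18 and Zeb2 -0.11, -1.17 and -1.37 in lines 31, 59 and 123. In the same setting Zeb1 was -0.94 in line 59 and -1.05 in line 123. Snai1 was -1.39 and Foxc2 -1.25 in line 31, and Prrx1 was -1.36 in line 123. The median of all genes was itself -1.53, -1.59 and -1.64 in lines 31, 59 and 123. With 1 array left out, the differences between p53 classes ran from -0.23 to 0.23 for Prrx1, -0.37 to 0.56 for Foxc2, -0.086 to 0.14 for Zeb2 and -0.52 to 0.19 for Snai2. Foxc2 between tumors and SubQ ran from -0.22 to 0.060. In the tumor line contrasts, Zeb2 ran from -0.19 to 0.19 in line 59 and -0.064 to 0.071 in line 123, Snai2 from -0.089 to 0.22 in line 123 and -0.78 to 0.089 in line 31, Twist2 from -0.20 to 0.0097 and Zeb1 from -0.19 to 0.024 in line 31. The cause of these shifts was not tested.

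The replicate numbers did not pair samples: deviations of same-numbered samples correlated at -0.28 to 0.34, over 0.1 in 3 of 30 pairs, against 14 of 60 for other numbers. With the replicate block, 5 factors and 3032 genes were called between lines and NSCs (Prrx1, 0.81, was lost and Foxc2, 2.05, gained), 5 and 15175 between tumors and SubQ, 4 and 892 by the F test, and 6 and 1481 in the tumor line contrasts. Only lines 3 and 28 share a replicate number with an NSC, so the block differences between lines and NSCs rest on these lines alone. The loss of Prrx1 and the gain of Foxc2 are therefore not read as results about all lines. Line of origin as a random block (correlation 0.38) gave 5 factors and 14564 genes. The p53 mutant lines alone gave 5 factors and 3084 genes against the NSCs, and the WT lines alone 4 and 2390.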
